A study of Mus musculus with 6 samples.

Results

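ATF4 binding was examined at 10 genes that control phosphorylation of the translation factor eIF2α or that belong to the Tribbles family of pseudokinases. The genes were the eIF2α phosphatase subunits Ppp1r15a and Ppp1r15b, the kinases Eif2ak1, Eif2ak2, Eif2ak3 and Eif2ak4 (GCN2), the GCN2 inhibitor Impact, and Trib1, Trib2 and Trib3. Every listed peak whose nearest gene carried one of these names was taken, at any distance. This gave 14 of the 17462 peaks in the 4 lists, and 5 of the 10 genes were named in at least 1 list. The 4 lists named 8863 gene IDs in all. Of these, 7535 were protein-coding genes, out of 21896 protein-coding genes in RefSeq.

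The 4 lists came from ATF4 ChIP-seq in primary mouse embryonic fibroblasts (MEFs), which are cells grown from the connective tissue of embryos, of strain 129S6/SvEvTac. Cells with a Wild-type genotype (WT) or a GCN2-/- genotype (GCN2 KO) were kept for 24 h in complete DMEM (+Leu) or in DMEM lacking leucine (-Leu), and chromatin was precipitated with the ATF4 antibody sc-200. Chromatin of 2 independent experiments was pooled into 1 library per condition, so the values have no replicate error and no test between conditions was possible. The -Leu lists name the input DNA of +Leu cells of the same genotype as their control. With leucine, the lists held 4850 peaks for WT and 3566 for GCN2 KO, and without leucine 6374 for WT and 2672 for GCN2 KO. Each peak is a 301-bp window with a score given by the authors, which started at 13 in every list. The highest score was 1499 in WT +Leu and 2628 in WT -Leu, and 391 and 353 in the corresponding GCN2 KO lists. The scale of the score and the sequencing depth are not given in the lists, and no normalization between libraries is stated. Scores and their ratios are therefore only described between conditions, and a ratio of scores is not a fold change in binding. A gene without a peak was not listed, which does not show that ATF4 was absent there. Peak lists hold no expression values, so neither the cell type nor the loss of GCN2 could be checked from them.

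Phosphorylation of the α subunit of eIF2 slows translation of most mRNAs and favors translation of a few, among them the mRNA of the transcription factor ATF4. The 4 kinases respond to different stresses: GCN2 to uncharged tRNA and stalled ribosomes, PERK (Eif2ak3) to unfolded protein in the endoplasmic reticulum, PKR (Eif2ak2) to double-stranded RNA and HRI (Eif2ak1) to heme deficiency. GADD34 (Ppp1r15a) and CReP (Ppp1r15b) each bring protein phosphatase 1 to eIF2α and remove the phosphate, GADD34 as a stress-induced and CReP as a constitutive subunit. Trib3 is a pseudokinase known as an ATF4 target that in turn binds ATF4. ATF4 binds DNA as a dimer, often with a C/EBP protein at a composite site written TGATGCAA.

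The sequences at the 4 sites on which the results turn, and at the center of the strongest peak, are given here in mm10 (GRCm38), 5′ to 3′. Capitals mark TGATGCAA, its variant TGATGTAA, or the cAMP response element TGACGTCA, and the 30 bases of the Ppp1r15a intron hold none of these. The strand is given for each.
Ppp1r15b promoter, chr1:133131053-133131142, plus strand: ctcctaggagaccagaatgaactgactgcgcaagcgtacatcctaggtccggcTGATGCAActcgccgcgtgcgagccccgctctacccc
Trib3 promoter, chr2:152344028-152344057, plus strand: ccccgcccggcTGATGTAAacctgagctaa
Trib3 upstream site, chr2:152350036-152350125, minus strand: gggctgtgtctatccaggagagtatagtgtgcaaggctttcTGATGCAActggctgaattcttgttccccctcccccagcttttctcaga
Ppp1r15a promoter, chr7:45526269-45526329, plus strand: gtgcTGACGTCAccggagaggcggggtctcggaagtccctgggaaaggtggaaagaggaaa
Ppp1r15a intron, chr7:45523487-45523516, minus strand: cgacttcttgcatatgaactctgctgggaa

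The Ppp1r15b and Trib3 promoters shared the run CCGGCTGATG, 10 bases long, which takes in the start of both motifs. The motifs then differed by C6T, counted from 1 at the 5′ end of the motif with the Ppp1r15b base first.

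ATF4 peaks were listed at the phosphatase subunits and Trib3 near their start sites, and at the kinases only inside the genes, far from their RefSeq starts. In WT +Leu, 4 of the 10 genes were named at a peak at any distance (Eif2ak1, Ppp1r15b, Trib1 and Trib3), where 14.6% of 21896 protein-coding genes were. In WT -Leu, 4 were named (Ppp1r15a, Ppp1r15b, Trib1 and Trib3), beside 18.3% of all genes. The GCN2 KO +Leu list named 2 (Ppp1r15b and Trib3), beside 11.1%, and the GCN2 KO -Leu list named 2 (Ppp1r15b and Trib1), beside 8.56%. With 10 genes chosen for their function, these counts describe the genes and are not a test.

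Within 5 kb of a TSS, the limit that the study used for target genes, the WT lists named 3 genes with leucine, beside 3.03% of all genes, and 3 without it, beside 4.40%. The GCN2 KO lists named 2 genes with leucine, beside 2.27%, and 1 without it, beside 1.61%. Ppp1r15b was the 1 gene of the 10 named in all 4 lists, which held for 0.959% of protein-coding genes at any distance. Within 5 kb it held for 0.0594%, or 13 genes, and Ppp1r15b was again the 1 gene of the 10. The 14 peaks fell at 9 sites, of which 2 were listed more than once, the Ppp1r15b promoter in 4 lists and the Trib3 promoter in 3.

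**Figure D1:**
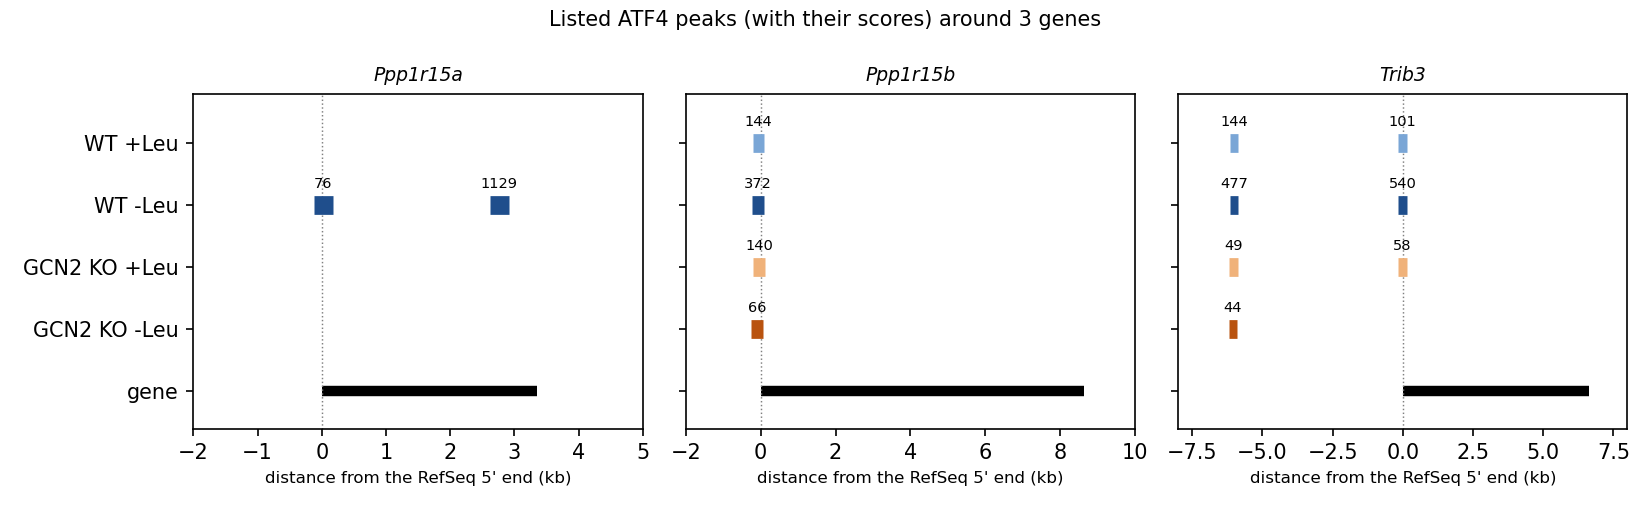
Positions of listed ATF4 peaks around Ppp1r15a, Ppp1r15b and Trib3. The horizontal axis is the distance in kb from the gene's 5′ end in RefSeq, along the direction of transcription, each row is a list, colored bars are 301-bp peaks with their scores above, and the black bar is the gene. Ppp1r15a peaks appear in WT -Leu only, the Ppp1r15b promoter peak in all 4 lists (a distal one lies off the axis), and 2 sites appear at Trib3, the upstream one in all 4 lists.

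Ppp1r15a, the stress-induced phosphatase subunit, had peaks in WT -Leu only, and it held the strongest peak of the 10 genes. That peak, on chromosome 7 from 45523352 to 45523652, scored 1129 and ranked 18 of 6374. Its center lay 2766 bp downstream of the TSS. The list places it at the transcription termination site of the neighboring gene Tulp2, but in the GENCODE annotation its center also lies in the last intron of Ppp1r15a, which runs for 416 bp from 45523323 to 45523738. The center also lies in an untranslated region of Tulp2 there. The annotation column thus left out that the peak lies inside Ppp1r15a, whereas the gene name column gave Ppp1r15a.

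The 2nd Ppp1r15a peak, from 45526097 to 45526397, scored 76 and ranked 801 of 6374 (87.4% of the peaks of the list scored as much or less). It was centered 21 bp inside the 5′ end of the gene and had a GC content of 60.1%, where the intronic peak had 46.8%. Its window holds TGACGTCA, 5 bp upstream of the start of Ppp1r15a and 29.5 bp from the center. This motif sits in a gap of 61 bp, shown whole in the sequence above, between Ppp1r15a and Plekha4, which is transcribed the other way. The list gives the peak to the Plekha4 promoter in its annotation column and to Ppp1r15a in its gene name column, so the promoters cannot be told apart here. No other list held a peak near: from the Ppp1r15a 5′ end, the nearest peak of any name was 90245 bp away in WT +Leu, and in GCN2 KO it was 249572 bp away with leucine and 58658 bp without it.

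Ppp1r15b, the constitutive phosphatase subunit, was bound at its promoter in all 4 lists, on chromosome 1. In WT the peak scored 144 with leucine and 372 without it, and in GCN2 KO it scored 140 with leucine and 66 without it. The WT score was thus higher without leucine, and the GCN2 KO score was lower. The centers lay 57 and 70 bp upstream of the TSS in the WT lists and 49 and 99 bp upstream in the GCN2 KO lists, within 50 bp of each other. All 4 windows contain the same TGATGCAA, at 133131106 to 133131113 and 53 bp upstream of the RefSeq start of the gene. The motif was 0.5 bp (+Leu) and 13.5 bp (-Leu) from the WT centers and 7.5 bp (+Leu) and 42.5 bp (-Leu) from the GCN2 KO centers, so that the lowest-scoring peak was also the one centered farthest from it.

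Relative to the other peaks of its own list, the Ppp1r15b promoter stayed near the top in every condition. Among WT peaks it ranked 49 of 4850 with leucine and 140 of 6374 without it, where 99.0 and 97.8% of peaks had an equal or lower score. Among GCN2 KO peaks it ranked 18 of 3566 with leucine and 33 of 2672 without it, where 99.5 and 98.8% did. The lists differ in length and these percentiles lie near their upper limit, so no change between conditions is read from them. The windows were GC-rich, with a GC content between 58.1 and 63.8%, and the centers lay in an exon of the noncoding transcript Gm26616 in GENCODE. A separate Ppp1r15b peak in GCN2 KO -Leu, from 133093280 to 133093580, scored 19, ranked 2527 and lay 37736 bp upstream of the TSS, in an intron of Pik3c2b.

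**Figure D2:**
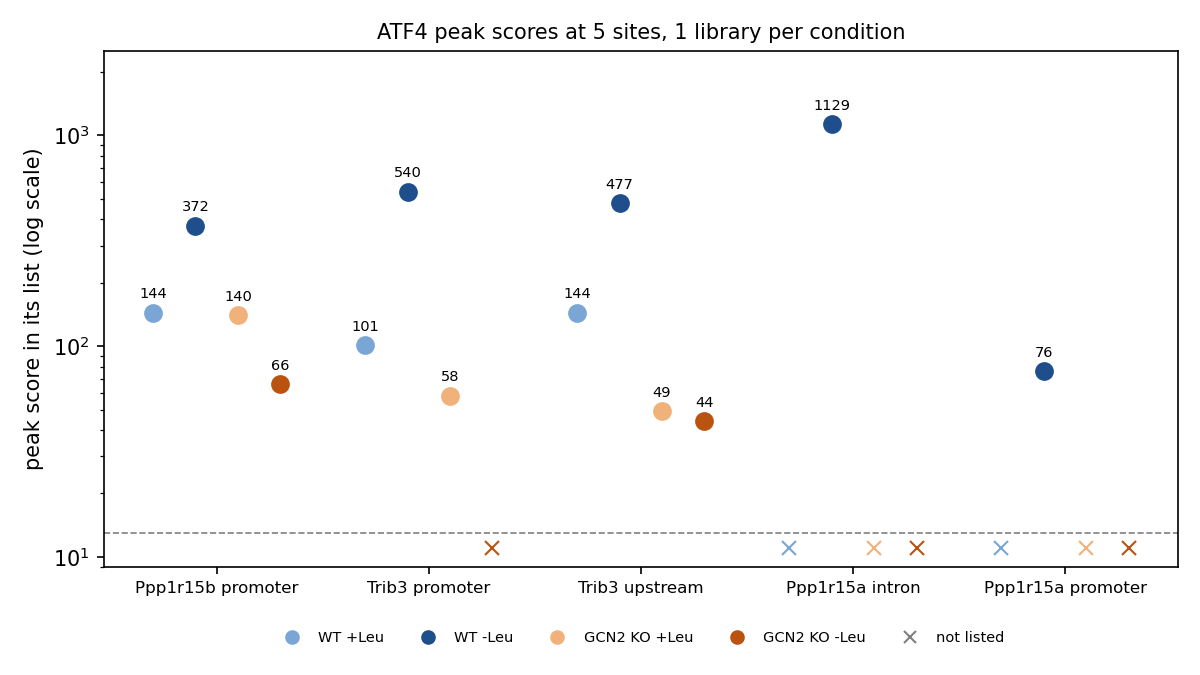
Peak scores at 5 sites in the 4 lists, on a log axis. Each point is 1 library with its score written above it, crosses mark sites not listed, and the dashed line is the lowest listed score, 13. In WT the scores at Ppp1r15b and at both Trib3 sites are higher without leucine, and the Ppp1r15a sites are listed in WT -Leu alone.

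The kinase genes had few peaks, with scores from 19 to 38, where the median of both WT lists was 30. Eif2ak1 (HRI) had 1 peak, in WT +Leu, on chromosome 5 from 143874552 to 143874852, which scored 30 and ranked 1835 of 4850. It lay in an intron. The list gives its distance to a TSS as 2840 bp, whereas it lay 56910 bp from the 5′ end of Eif2ak1 in RefSeq GRCm38.p6 and 56914 bp from that in GENCODE. The 5-kb count of 3 genes in WT +Leu is 2 with the RefSeq distance, an alternative added after the data were seen.

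No list named Eif2ak2, Eif2ak3 or Eif2ak4 at a peak. For Eif2ak2 (PKR) the nearest peak of any name lay 663570 bp from its 5′ end in WT +Leu and 459306 bp in WT -Leu. Some peaks inside kinase genes carry the name of another gene whose start is nearer. In Eif2ak3 (PERK), a WT -Leu peak named for Tex37 lay in exon 12 of 17, scored 38 and ranked 1865 of 6374, at 45677 bp from the Eif2ak3 5′ end. In Eif2ak4 (GCN2), peaks named for Srp14 lay in intron 31 in WT +Leu with a score of 21 and in intron 25 in WT -Leu with a score of 19. The GCN2 KO lists held no peak inside these genes, and their nearest peaks to the Eif2ak4 5′ end were 134725 bp away with leucine and 266758 bp without it. The 3 intragenic peaks held neither TGATGNAA nor TGACGTCA.

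Impact, which competes with GCN2 for the activator GCN1, was not named at any peak. In WT the nearest peak of any name lay 335394 bp from its 5′ end with leucine and 139167 bp without it, and in GCN2 KO these distances were 60561 and 1961888 bp.

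Trib3 was the Tribbles gene with promoter binding, and its promoter peak scored 101 in WT with leucine and 540 without it. In GCN2 KO it scored 58 with leucine and was not listed without it. The peak lay on chromosome 2, and its center was 14 bp upstream of the TSS in WT +Leu and 7 bp upstream in the other two lists. It ranked 87 of 4850, 79 of 6374 and 83 of 3566, so at least 97.7% of the peaks in each of these lists scored as much or less. The TGATGTAA of the promoter, at 152344039 to 152344046, was 31.5 bp from the WT +Leu center and 24.5 bp from the others. It lies 14 bp inside the RefSeq 5′ end of Trib3 and 7 bp before the GENCODE start.

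A site about 6 kb upstream of Trib3 was listed in all 4 conditions under another gene name, that of the long noncoding RNA Gm14164, in whose intron it lies. It is outside the set of peaks chosen by name. In WT it scored 144 with leucine and 477 without it, ranking 49 of 4850 and 102 of 6374. In GCN2 KO it scored 49 with leucine and 44 without it, ranking 175 of 3566 and 189 of 2672. The WT score was thus higher without leucine and the GCN2 KO scores were close to each other, both below the WT scores. The centers were 6007, 6009, 6031 and 6055 bp upstream of the Trib3 5′ end. All windows hold the TGATGCAA shown above, at 152350077 to 152350084 and between 10.5 and 34.5 bp from the centers. Unlike the promoters, this site has no CpG in its windows in any list and a GC content between 53.2 and 54.5%. Peaks were given to genes by distance alone, and which gene this site acts on was not tested.

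The other Tribbles genes had no peak within 5 kb. Trib1 was named at a different peak in each of 3 lists. The WT +Leu peak scored 29 at 58651 bp downstream of the TSS, the WT -Leu peak scored 23 at 38366 bp downstream, within a LINE repeat, and the GCN2 KO -Leu peak scored 32 at 6821 bp upstream. These ranked 2429, 4264 and 827 in their lists. GCN2 KO +Leu had no Trib1 peak, and none of the 3 peaks held a TGATGNAA. Trib2 was not named in any list, and its nearest peak of any name was 727204 bp away in WT -Leu and farther in the other lists.

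**Figure D3:**
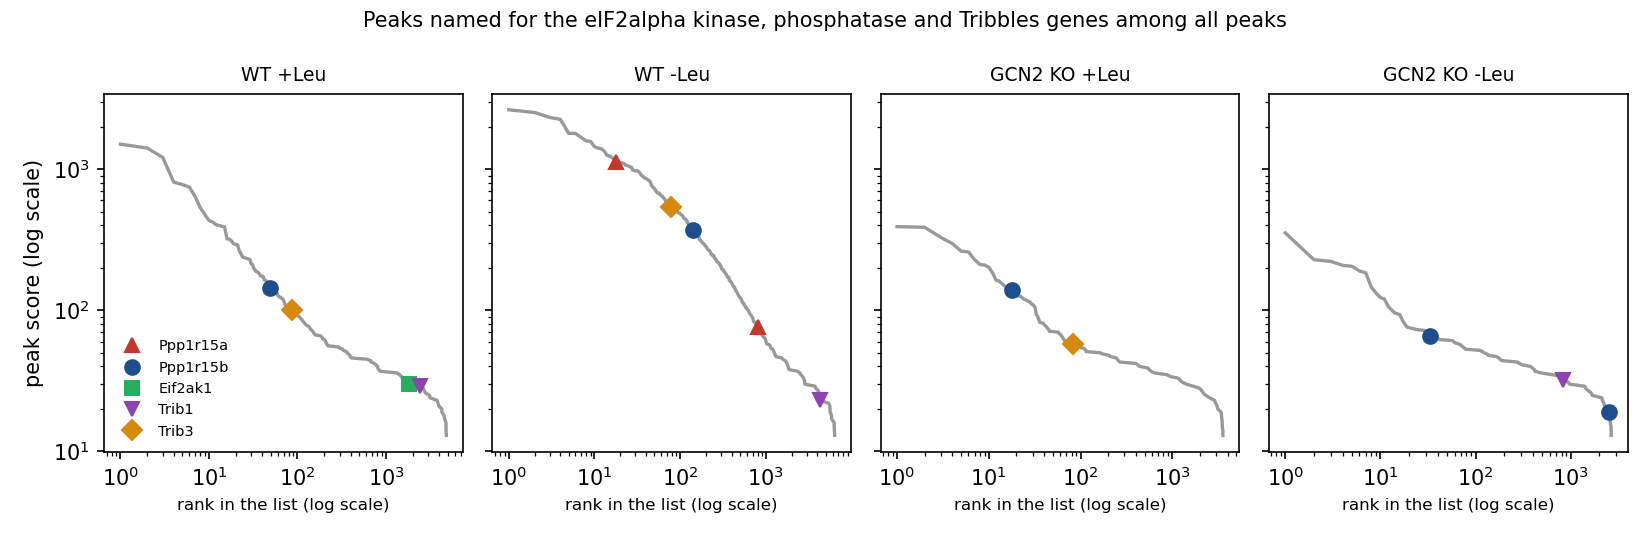
Score against rank for all peaks of each list (gray line), with the 14 peaks named for the genes as colored symbols. Both axes are on a log scale. The Ppp1r15b and Trib3 promoter peaks lie at ranks 18 to 140 in the lists that hold them, the stronger Ppp1r15a peak at rank 18, and the Trib1 and Eif2ak1 peaks at scores of 32 or less.

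Of the 14 peaks named for the genes, 7 held TGATGNAA within their 301 bp on either strand, a pattern that includes TGATGCAA. These were the 4 Ppp1r15b promoter peaks, with TGATGCAA, and the 3 Trib3 promoter peaks. Over all peaks on assembled chromosomes, TGATGNAA was found in 7.77% of those listed for WT with leucine (95% Wilson interval 7.05 to 8.56) and 15.9% without it (15.0 to 16.8). In the GCN2 KO lists it was found in 4.59% with leucine (3.95 to 5.33) and 4.55% without it (3.82 to 5.41). TGATGCAA was found in 3.91 and 9.05% of the WT peaks and 1.72 and 1.50% of the GCN2 KO peaks, with leucine first. The same Ppp1r15b and Trib3 bases recur in these 7 windows, so they count 2 sites and not 7. The shares over all peaks are not matched for score. The 7 windows ranked between 18 and 140 in their lists, where median scores were 29 or 30, so no enrichment is read from them. TGACGTCA, which reads the same on both strands, was in 0.330% of the WT -Leu peaks, among them the Ppp1r15a promoter peak.

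RefSeq promoters of GRCm38.p6, 250 bases before to 50 after the start of a gene, were searched for the same letters. An entry was found for 7 of the 10 genes, and Ppp1r15b, Impact and Trib1 had no entry. Trib3 held 1 TGATGNAA, where 3.97% of 32851 promoters did, and Ppp1r15a held 1 TGACGTCA, where 1.79% did. The promoters of Eif2ak1, Eif2ak2, Eif2ak3, Eif2ak4 and Trib2 held none of the 3 patterns.

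The -Leu to +Leu ratio of scores was set beside the same ratio at all sites common to the WT lists, which are those with centers 300 bp or less apart. Over 308 such sites the median ratio was 2.36 (quartiles 1.27 and 4.56), and 252 sites (81.8%) had a ratio above 1. Ppp1r15b had a ratio of 2.58, with 143 sites higher, so it lay near the middle of the common sites. The Trib3 upstream site had a ratio of 3.31, with 119 sites higher. The Trib3 promoter had a ratio of 5.35, with 65 sites higher, beyond the upper quartile. These quartiles are not matched for score. The Trib3 promoter scored 101 in WT +Leu, and other common sites with scores there of 100 to 103 had ratios of 0.67, 1.84, 3.85, 4.37, 5.43 and 8.46. In GCN2 KO, the 96 common sites had a median ratio of 1.0 (quartiles 0.647 and 1.25). Ppp1r15b had a ratio of 0.471 there, with 80 sites higher, and the Trib3 upstream site a ratio of 0.898, with 55 higher. The median takes in weak and strong peaks alike. The common sites with the highest GCN2 KO +Leu scores, 391, 387 and 328, had ratios of 0.471, 0.574 and 0.402. The ratio was 1.36 at the site that scored 259. A low ratio was thus not particular to Ppp1r15b.

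The genotypes were compared in the same way, with lists that also enter the ratios above. With leucine, 93 sites were common to the genotypes and the median GCN2 KO to WT ratio was 0.667 (quartiles 0.347 and 1.15). Ppp1r15b had a ratio of 0.972, the Trib3 promoter 0.574 and the Trib3 upstream site 0.340. Ppp1r15b was thus the site of these 3 whose score differed least between genotypes, and 31 of the 93 sites had a higher ratio. Without leucine, the median over 81 common sites was 0.469 (quartiles 0.106 and 0.870). Here Ppp1r15b had a ratio of 0.177 and the Trib3 upstream site 0.0922, just below the lower quartile. The median is not matched for score. The common sites with the highest WT -Leu scores, 2515, 2319 and 2249, had ratios of 0.0732, 0.0569 and 0.0987. The ratio was 0.254 at the site that scored 1391. Of the WT -Leu peaks, 30 had a partner in each of the other lists, and 2 of these were the Ppp1r15b promoter and the Trib3 upstream site.

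**Figure D4:**
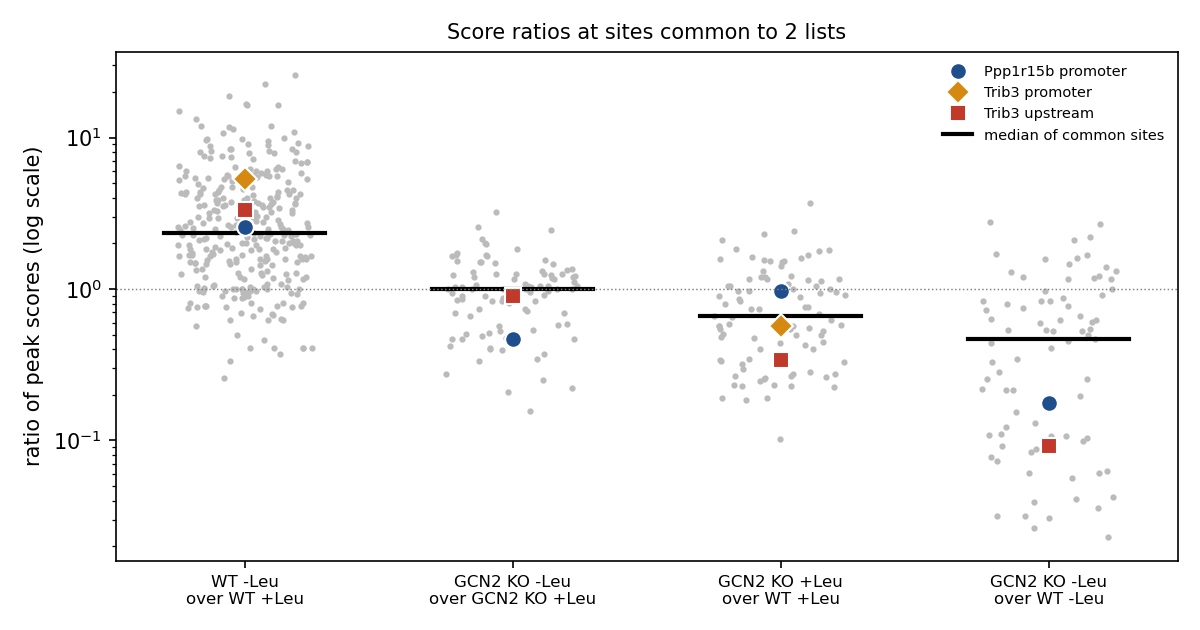
Ratios of peak scores at sites common to 2 lists, on a log axis, for the 4 comparisons named below the axis. Gray points are common sites, spread sideways for visibility, black bars their medians, and colored symbols the Ppp1r15b and Trib3 sites. The WT -Leu to +Leu ratios of all 3 sites lie above 1, while the GCN2 KO ratios of both sites listed there lie below 1.

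Other genes of the pathway were read from a list of 25. In WT +Leu, 2 of the 25 had a peak at any distance, beside 14.6% of all genes, and 1 within 5 kb, beside 3.03%. In WT -Leu these were 8, beside 18.3%, and 4, beside 4.40%. The GCN2 KO +Leu list had 5, beside 11.1%, and 2 within 5 kb, beside 2.27%. The GCN2 KO -Leu list had 2, beside 8.56%, and 0 within 5 kb, beside 1.61%. With 25 genes, these counts are a description, and no difference between the lists is read from them. Of the 7 regulators of the kinases (Gcn1, Abcf3, Dnajc3, Prkra, Nck1, Hspa5 and Oma1), Hspa5, the endoplasmic reticulum chaperone BiP that holds PERK inactive, was the 1 with a peak within 5 kb. It scored 135 in WT -Leu and ranked 458, at 1940 bp upstream of its TSS. Of the 9 subunits of eIF2 and its exchange factor eIF2B, Eif2s2, the β subunit of eIF2, scored 45 in WT -Leu at 90 bp. Eif2b1, a regulatory subunit of eIF2B, scored 57 in WT -Leu at 3073 bp and 40 in GCN2 KO +Leu at 4340 bp.

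None of the 3 catalytic subunits of protein phosphatase 1 and none of the 4 partners of Tribbles proteins read here (Akt1, Akt2, Cop1 and Cebpa) had a peak within 5 kb in any list. Of the 2 effectors, Atf4 itself had none within 5 kb. Ddit3, which encodes the transcription factor CHOP, scored 173 in WT with leucine, 736 in WT without it and 40 in GCN2 KO with it, between 288 and 320 bp upstream of its TSS. It was not listed in GCN2 KO -Leu, as was the case for the Trib3 promoter, whereas the Ppp1r15b promoter was listed in all 4.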

How the data were processed

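ATF4 ChIP-seq was measured in 1 library per condition, and the 2 input libraries were not used. Per the submitters' processing notes and the study's methods, the authors used fastx for trimming, BWA 0.7.12 for alignment to mm10 and MACS2 2.1.0 for peak calling, and HOMER 4.7 then annotated windows of 150 bp on each side of the summit. The deposited score of a peak is a whole number, and no normalization between libraries is stated. The deposited GC fraction equalled that of the GRCm38 reference for all 4839, 6362, 3549 and 2658 peaks on assembled chromosomes. The deposited CpG fraction was not checked in this way. Distances are in bp to the TSS that the authors' annotation used.

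Ranks within a list give ties the best rank, and a percentile is the share of peaks scoring as much or less. Peaks were common at 300 bp or less between centers. Motifs were searched on both strands of the 301-bp window. The background was 21896 protein-coding RefSeq genes, and 8849 of 8863 listed gene IDs matched RefSeq. Depth is unknown, 95% Wilson intervals cover counting error only, and no test was run. Python 3.11.15, numpy 2.4.6, pandas 2.3.3, pysam 0.24.0, statsmodels 0.14.6, matplotlib 3.10.9 and samtools 1.23.1 were used. The steps were tested on simulated data and recovered 200 of 200 common peaks planted among 3000, and all 300 of 300 windows with a planted motif. The unplanted peaks of the second simulated list lay on a separate chromosome, and the motif backgrounds held only C and G. The simulation thus says little about false matches. Pairs used for the ratios also had to be each other's nearest peak, a step that was not simulated.

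The 10 genes and the list of 25 were chosen with earlier results of these data known. 1 gene planned beside these 25 is not reported here. The rule for names was all 10 genes with every peak, and those of the 25 that any list names within 5 kb; neighboring genes, Gm14164 and the rest of the 25 fall outside it and were named after their values were seen or to spell out the list. Likeness of patterns was not computed over 4 unreplicated values. Alternatives were a score of 30 or more, equal list lengths, assembled chromosomes, other distances, other overlaps, other motif settings, tied ranks and percentiles, and any gene name near the start. The gene body with 10 kb upstream and the RefSeq distance were added after the data were seen.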

Additional observations from a re-analysis of the deposited data

Results flagged for a closer look

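At 2 of the sites read here, the -Leu to +Leu ratio of scores lay above 1 in WT and below 1 in GCN2 KO. At the Ppp1r15b promoter it was 2.58 in WT, where the median of the common sites was 2.36, and 0.471 in GCN2 KO, where the median was 1.0. These medians are not matched for score. Ppp1r15b scored 140 in GCN2 KO +Leu, and common sites that scored 148, 143, 127, 127 and 126 there had ratios of 0.25, 0.273, 0.347, 0.158 and 1.16. At the site upstream of Trib3 the ratio was 3.31 in WT and 0.898 in GCN2 KO, the latter within the quartiles of the common sites (0.647 and 1.25). With 1 library per condition, neither difference was tested. Other strong common sites had such ratios too, so the pattern was not particular to these 2. On chromosome 2 near 119351011 the ratio was 1.68 in WT and 0.471 in GCN2 KO. On chromosome 17 near 46995144 it was 1.86 and 0.574. Near 70837091 on that chromosome it was above 1 in both genotypes, at 9.73 and 1.36.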

How the results depend on the processing

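Of 86 values computed under alternatives, 80 kept their direction and lay within 1.5 times the reported value, 5 moved further and 1 reversed. With counts this small, a change from 3 genes to 2 is within that limit. Some of the 80 could not change. All peaks named for the 10 genes lay on assembled chromosomes, and Ppp1r15b and Trib3 each had 1 peak per WT list. The 80 therefore overstates how far the results were tried. Counting peaks of any name within 50 kb of an annotated TSS gave 2 of the 10 genes in WT +Leu in place of 4. A limit of 10 kb in place of 5 kb gave 2 genes in GCN2 KO -Leu in place of 1. TGATGCAA alone was in 4 of the 14 peaks, in place of 7 for TGATGNAA. With the percentile of the score in place of the score, the -Leu to +Leu ratio in WT became 0.988 for Ppp1r15b, below 1 and so reversed, and 1.01 for Trib3. In GCN2 KO it became 0.993 for Ppp1r15b. A percentile cannot exceed 100, so ratios of sites near the top of both lists lie close to 1 by construction. No paired analysis was possible because each condition had 1 library, and no library could be left out. The lists give no depth, which limits every comparison of scores and of unlisted sites.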
